A study of Mus musculus with 8 samples.

Results

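The maturation of wild-type mouse progenitors into neutrophils in culture was followed by comparing the 2 wild-type day 8 arrays with the 2 wild-type day 4 arrays, 4 of the 8 arrays in the series. The cells were grown from bone marrow of wild-type mice. The day 4 cells had grown for 4 days with the granulocyte growth factor G-CSF and with stem cell factor (SCF), and were sorted for c-Kit on the surface and no Gr-1. The day 8 cells had been kept for 6 days with both factors and then for 42 hours without SCF, and were sorted for Gr-1 on the surface and no c-Kit. The other 4 arrays, 2 per day, came from miR-223 null cells taken through the same culture and the same sorts. Both genotypes thus shared the isotope-labelling (SILAC) medium and both factors. Within each genotype, day differs together with SCF withdrawal and the sort gate, and their parts in a difference cannot be told apart.

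Neutrophils arise in the bone marrow from dividing progenitors that carry c-Kit, the receptor for SCF, under the drive of G-CSF. On the way they leave the cell cycle, fill with granules whose contents are made in successive waves, condense and lobulate the nucleus, and acquire surface proteins such as those seen by the Gr-1 antibody. The messenger RNA of a mature neutrophil therefore differs widely from that of its progenitor. miR-223 is a microRNA made mainly in myeloid cells. Its main mature form is shown because the null arrays, used below as a second run of the same maturation, lack this one gene (mouse RefSeq, GRCm38.p6, chrX:96242884-96242905, plus strand; the capitals mark the seed, bases 2 to 8 from the 5′ end).
mmu-miR-223-3p: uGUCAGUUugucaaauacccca

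Each value is the log2 signal of a probe set, a group of short oligonucleotides on an Affymetrix array that together read one stretch of a transcript. Of the 45037 probe sets left after removal of the array's own controls, the 22519 whose mean over all 8 arrays was at or above the median of such means (5.51 on the log2 scale) were tested. Some of them passed through 1 day alone and so had to differ between the days. Neither the value table nor the gene table used here pairs probe set identifiers with genes. Tests of gene groups, a check of the sorted cells against their markers, and probe sequences are therefore not given, and named transcripts are limited to those that the array's mouse control probe sets name. Array medians lay within 0.054 of each other. The mean of the 18 hybridization controls, spiked into every sample, was higher at day 8 than at day 4 by 0.17 on the log2 scale in wild type. It read 9.86 and 9.88 on the wild-type day 4 arrays and 9.95 and 10.13 on the day 8 arrays. The step was larger in null cells, from 9.75 and 9.81 to 10.09 and 10.18. The mean of a second set of controls, the 24 poly-A control probe sets, was also higher at day 8, by 0.15 in wild type. In null cells that mean went from 8.10 and 8.03 to 8.39 and 8.58.

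The largest rise was that of probe set 1448573_A_AT. It read 5.28 and 4.88 on the wild-type day 4 arrays and 12.39 and 12.47 on the day 8 arrays (log2). Both day 4 values lay below the filter value of 5.51 and both day 8 values well above it. The days did not overlap, which the rule for naming these largest rises and falls required. The log2 change was 7.35 (SE 0.12, 95% interval 7.08 to 7.62, n = 2 per day), and the null arrays gave 4.73 and 4.70 at day 4 and 12.32 and 12.44 at day 8. The second largest rise, of 1450808_AT, went from 5.24 and 5.55 to 12.55 and 12.68, a log2 change of 7.22 (SE 0.10, n = 2 per day). Its day 4 values too lay near 5.51, and by the same rule the days did not overlap. How the background was corrected is not given in the sources, so the size of both rises is less certain than their direction.

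The largest fall was that of 1433575_AT, which read 11.31 and 11.35 at day 4 and 4.47 and 3.82 at day 8 in wild type. Its 2 day 4 values were nearly equal while its 2 day 8 values, both low, lay further apart. The rule for naming required that the days did not overlap. The log2 change was -7.18 (SE 0.23, 95% interval -7.69 to -6.68, n = 2 per day). In null cells the same probe set read 11.25 and 11.47 at day 4 and 4.17 and 4.86 at day 8. The next fall, of 1454269_S_AT, went from 9.51 and 9.86 to 3.70 and 3.36, a log2 change of -6.15 (SE 0.28, n = 2 per day). The day 8 values of both falls lay below the filter value of 5.51, so their size too is less certain than their direction. None of these 4 changes differed between the genotypes by limma (adjusted p from 0.38 to 0.66), and the 95% intervals of the 4 differences together ran from -1.37 to 0.49. For both falls the interval still allowed a difference of more than 2-fold.

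Among probe sets whose means on both days were at or above 5.51, the largest changes were smaller. This rule itself limits the size of a change, so no conclusion is drawn from that. The 8 largest rises of this class ran from 58.1-fold to 124-fold, up to day 8 means of 11.81 to 13.91. They started from day 4 means of 5.70 to 7.37. The 8 largest falls in that class ran from 22.6-fold to 44.7-fold, from day 4 means of 10.44 to 11.43. Their day 8 means were 5.65 to 6.65. Null arrays entered the filter and the estimate of spread behind the calls, but not the wild-type means that ranked these probe sets. In null cells the same 16 probe sets changed by 6.16 to 7.70 (rises) and by -5.53 to -3.86 (falls) on the log2 scale. The highest rises of this class were thus larger than its highest falls in both genotypes.

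**Figure D1:**
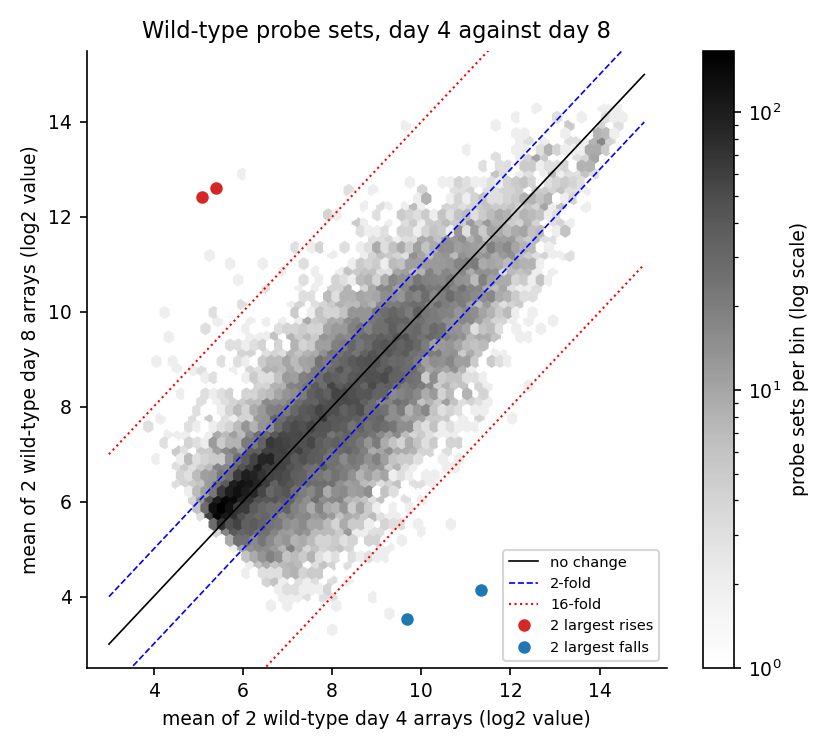
Mean log2 value of each tested probe set on the 2 wild-type day 8 arrays (vertical axis) against the 2 wild-type day 4 arrays (horizontal axis), as counts per bin on a log colour scale; lines mark no change, 2-fold and 16-fold. The 2 largest rises sit at day 4 means of 5.08 and 5.40 and day 8 means of 12.43 and 12.61, the 2 largest falls at 11.33 and 9.68 against 4.15 and 3.53, and the slanted lower left edge is the filter on the mean over all arrays.

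The breadth of the change was large: by limma, 77.2% of tested probe sets had an adjusted p below 0.05 in wild type (35.5% higher and 41.7% lower at day 8). Over all 45037 probe sets, with none removed by the filter, 53.2% were called. The arrays of the days did not overlap for 88.8% of tested probe sets (89.6% in null cells), so separation of the days in a single probe set was common; 77.1% were both separated and called. In null cells 75.9% were called. Most changes were moderate. Called rises had a median of 1.67-fold (quartiles 0.48 and 1.27 on the log2 scale) and called falls a median of 1.99-fold (quartiles -1.64 and -0.58). For 12525 probe sets (55.6%) the 95% interval of the change lay wholly within 2-fold in either direction. When the change was tested against 2-fold instead of against no change (limma treat), 1925 rises and 3425 falls passed. The share of calls that were higher, 46.0%, became 36.1% (5796 higher, 10266 lower) with arrays scaled to the hybridization controls. That scaling took the median change of all tested probe sets from -0.04 to -0.21. Quantile normalization took it to 0.10 and turned the order, with 52.7% of calls higher (9356 higher, 8406 lower). Without the filter on low values 53.6% of calls were higher (12843 higher, 11100 lower).

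Counted by size, falls outnumbered rises at 2-fold, 4-fold and 8-fold, as deposited and under each of the 4 other scalings, and rises reached further. At a change of 4-fold or more there were 863 rises and 1518 falls, and at 8-fold or more 288 rises and 390 falls. At 32-fold or more the order was turned, with 44 rises and 21 falls, and at 64-fold or more there were 17 rises and 2 falls. The null arrays gave the same order, with 1032 rises and 1516 falls at 4-fold and 59 rises and 23 falls at 32-fold. At 16-fold wild-type rises outnumbered falls as deposited (114 and 79) but not when scaled to the hybridization controls (98 and 117). At 32-fold rises outnumbered falls under each of the 4 other scalings and without any 1 array, with the closest counts (40 and 26) under scaling to the hybridization controls. With both day means at or above 5.51 there were 20 rises and 3 falls of 32-fold or more.

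**Figure D2:**
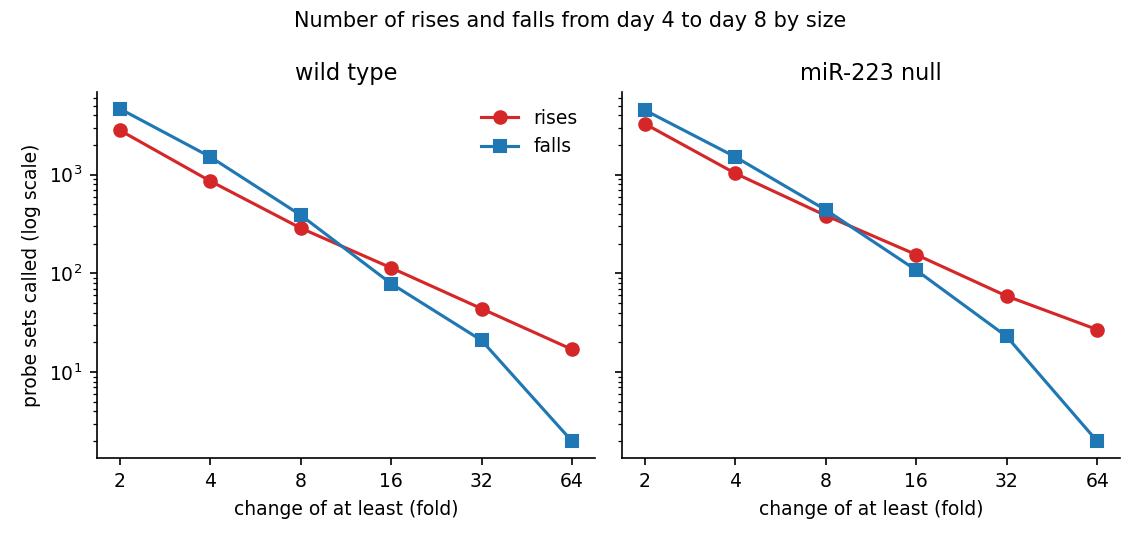
Number of probe sets called by limma (vertical axis, log scale) with a change from day 4 to day 8 of at least the size on the horizontal axis (fold), for rises and falls, in wild type (left) and miR-223 null cells (right). Falls lead up to 8-fold in both genotypes, and rises lead at 32-fold (44 against 21 in wild type) and 64-fold (17 against 2).

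A group of probe sets crossed the filter value. It was defined as both arrays of a day below 5.51, both of the other day at or above it, and a change of the means of 4-fold or more. By this count 169 probe sets crossed upwards from day 4 to day 8 in wild type and 389 crossed downwards. Those that crossed upwards reached a median of 7.92 at day 8, with 15 at or above 10. Those that crossed downwards came from a median of 7.61 at day 4, with 8 at or above 10. In null cells 143 of the 169 (84.6%) and 292 of the 389 (75.1%) crossed in the same way, which were 63.8% of the 224 upward and 78.1% of the 374 downward crossings found there. Without detection calls, a value below 5.51 does not show that a transcript was absent.

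Where the changes lay in the range of levels was described over all 45037 probe sets, with none removed for low values. They were divided into 5 groups of about equal size by their level in null cells, on arrays that do not enter the wild-type means. Among the 9008 with the highest level in null progenitors, 59.6% were called lower and 26.4% higher in wild type, with a median log2 change of -0.47. Among the 9008 highest in null neutrophils, 46.6% were called higher and 37.8% lower, with a median of 0.13. The background over all 45037 was 28.5% higher and 24.6% lower, with a median of 0.13. Falls of 4-fold or more numbered 1019 in the group highest at day 4, and rises of that size 718 in the group highest at day 8. Grouping by the level on 1 day itself favours falls in the first group and rises in the second. Null arrays do not remove this, since the changes of the genotypes correlated at r = 0.98 over the tested probe sets. No conclusion is drawn from these shares.

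Changes in wild type were then set beside those in null cells. The changes themselves share no array, but the filter and the estimate of spread behind the calls used all 8 arrays. Of the 114 probe sets that rose 16-fold or more in wild type, all 114 were called higher in null cells, where 36.0% of tested probe sets were called higher. Of these 107 also rose by 16-fold or more there, 93.9% of the wild-type set and 69.0% of the 155 such rises in null, against 0.688% of tested probe sets. Of the 79 falls of that size all 79 were called lower in null (39.9% of tested), and 65 were again 16-fold or more, 82.3% of the wild-type set and 60.2% of the 108 in null, against 0.480%. The smallest change in null was 9.96-fold among the rises and 5.97-fold among the falls. Although the sets were chosen in wild type, the median rise was larger in null (5.05 against 4.65 on the log2 scale), and stayed so when scaled to the hybridization controls (4.70 against 4.49). The median fall was -4.60 in null and -4.46 in wild type, but without wild-type day 4 replicate 1 both were -4.60.

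The test of the difference itself called 1.65% of probe sets, 372 in all. Wild type had the lower change in 348 of them (1.55%) and the higher in 24 (0.107%). Among the 348, 186 rose in both genotypes but less in wild type, and 85 fell in both but further in wild type. The median absolute difference was 0.75 on the log2 scale. Opposite calls were rare: 20 of the 372 were called lower in wild type and higher in null, and 2 the reverse. For 21278 probe sets (94.5%) the 95% interval of the difference lay within 2-fold in either direction. The number called moved with single arrays. Without wild-type day 4 replicate 2 it rose to 893, leaving out the other array of that group gave 249, and it lay between 48 and 94 without each of the other 6 arrays. It also moved with the scaling: with the hybridization controls it was 124, split into 61 lower and 63 higher in wild type.

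**Figure D3:**
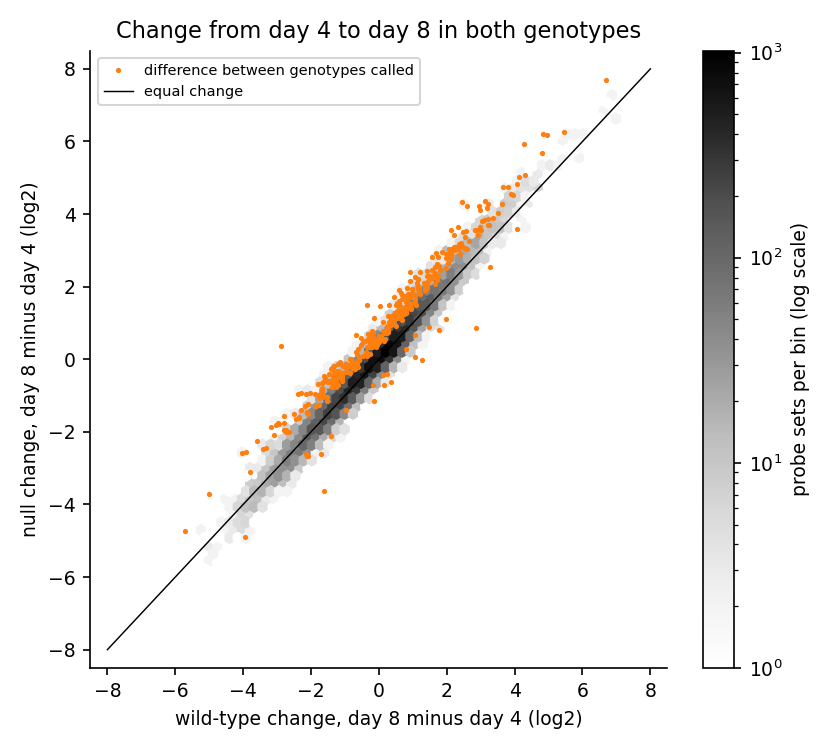
Log2 change from day 4 to day 8 in null cells (vertical axis) against that in wild-type cells (horizontal axis) for the 22519 tested probe sets, as counts per bin on a log colour scale, with the 372 probe sets whose difference was called drawn as points. The bins follow the line of equal change, and most of the points (348) lie above it, on the side where the null change was the higher.

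The 4 wild-type arrays were placed along the maturation seen in null cells, with the mean of the null day 4 arrays at 0% and that of the null day 8 arrays at 100%. Wild-type day 4 replicate 1 lay at 8.73% and replicate 2 at 3.17%, and day 8 replicate 1 at 97.4% and replicate 2 at 102%. With arrays scaled to the hybridization controls, day 8 replicate 1 moved to 93.8%, with replicate 2 at 103%. Both pairs of replicates were thus spread along the direction in which the days differ. Across the tested probe sets, the difference of replicate 1 minus replicate 2 correlated with the null change at r = 0.30 at day 4 and at r = -0.30 at day 8. The probe sets are not independent, and no array is shared by the compared values. Within null cells the same figures, against the wild-type change, were 0.08 and -0.002.

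The same was seen in the probe sets that changed most. At day 4, replicate 1 read higher than replicate 2 for 63.1% of the 1032 probe sets that rose 4-fold or more in null cells, and for 14.1% of the 1516 that fell by that much, against 42.5% of all tested. Its median difference was 0.09 in the first set and -0.20 in the second. Wild-type day 4 replicate 1 thus read closer to the day 8 arrays than replicate 2 did. At day 8, replicate 1 read higher than replicate 2 for 28.4% of the rises and 78.7% of the falls, against 51.8% of all tested, and so lay closer to day 4. For the null arrays, with sets taken from the wild-type change, the day 4 shares were 51.8% of rises and 39.1% of falls, against 50.7%. At day 8 the null shares were 35.2% of rises and 45.9% of falls, against 44.4%. A share of other cells in the sort and a shift within each cell cannot be told apart in RNA from a whole sample, and which applied was not tested. Without wild-type day 4 replicate 1, limma called 7684 probe sets higher and 9302 lower, and falls of 16-fold or more went from 79 to 106. Without wild-type day 8 replicate 1 those falls numbered 104.

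**Figure D4:**
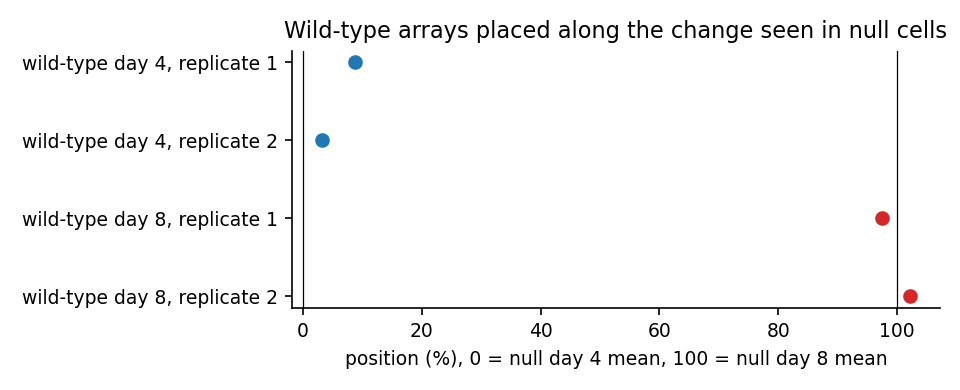
Position of each wild-type array (rows) along the change from null day 4 (0%) to null day 8 (100%), from the projection over the tested probe sets. Day 4 replicate 1 at 8.73% and day 8 replicate 1 at 97.4% lie further inwards than their pairs at 3.17% and 102%.

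Probe sets differ in how specific their probes are, which the maker's suffix marks. A plain _AT stands for probes of a single transcript, _A_AT for variants of one gene, _S_AT for probes shared by several genes, and _X_AT for sets in which some probes also match unrelated sequences. Of the 114 rises of 16-fold or more, 95 had the plain suffix, 12 _A_AT, 6 _S_AT and 1 _X_AT. Of the 79 falls of that size 36 had the plain suffix, 17 _A_AT, 10 _S_AT and 16 _X_AT. Among all tested probe sets 72.6% had the plain suffix and 6.55% were _X_AT. Called falls made up 39.0% of plain probe sets, 48.6% of _A_AT, 49.6% of _S_AT and 48.4% of _X_AT ones, and called rises 36.9%, 32.4%, 32.2% and 29.2%. These shares are a description, and their differences were not tested. Among falls of 16-fold or more, those with _S_AT and _X_AT suffixes, 1454269_S_AT included, can read more than one gene's RNA.

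Named transcripts were measured by 19 mouse control probe sets. In wild type 8 were called higher and 9 lower at day 8, 17 of 19 beside 77.2% of all tested. The transferrin receptor, which carries iron into cells and is abundant on dividing ones, had the largest change. Its 3′ probe set read 8.56 and 8.85 on the day 4 arrays and 6.49 and 6.13 on the day 8 arrays (log2). The days did not overlap, and the null arrays, at 9.17 and 8.91 and then 6.12 and 6.44, gave the same order. The fall was 5.26-fold (log2 change -2.40, SE 0.16, limma adjusted p = 1.3e-07, n = 2 per day). All 3 of its probe sets remained called in each alternative, with log2 changes between -2.59 and -1.98.

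RNA carrying the B1 repeat, a short interspersed element transcribed within many genes, read 12.35 and 12.41 at day 4 and 11.45 and 11.53 at day 8. The days did not overlap, and the log2 change was -0.89 (SE 0.06, limma adjusted p = 1.9e-07, n = 2 per day). Both B2 repeat probe sets were also called lower, at -0.26 and -0.43, the first of which was -0.03 and not called after cyclic loess. All 3 probe sets of 18S ribosomal RNA were lower and called, at -0.51, -0.78 and -1.02. Without wild-type day 8 replicate 2, the first was -0.24 and the last -0.90, neither called. After quantile normalization the first was -0.28, also not called. Without wild-type day 4 replicate 2 the last was -0.43 and called, and the first -0.42 and not called; with the other day 4 array left out instead, the last was -1.61. Beta-actin, a main part of the cytoskeleton, rose. Its 5′ probe set read 13.94 and 14.04 at day 4 and 14.55 and 14.53 at day 8, a log2 change of 0.55 (SE 0.05, limma adjusted p = 9.3e-07, n = 2 per day). Its 3′ probe set changed by 0.28, and by 0.11 without a call when scaled to the hybridization controls. The signal at its 3′ over its 5′ probe set was 0.44 and 0.38 on the wild-type day 4 arrays and 0.10 and 0.17 on the day 8 arrays. For the transferrin receptor that measure was 1.89 and 1.69 at day 4 and 1.80 and 1.68 at day 8, so it overlapped between the days, whereas in null cells it did not (2.02 and 1.73, then 1.66 and 1.61). For Gapdh it was 0.049 and -0.022 at day 4 and -0.030 and -0.049 at day 8 in wild type, lower at day 8 without overlap, as for beta-actin. The part of RNA integrity in the changes of these transcripts was not tested.

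Gapdh, an enzyme of glycolysis, was called higher at its 3 probe sets by 0.13 to 0.20, but when scaled to the hybridization controls none was called and the 3′ and middle probe sets had values just below 0. Those 2 also lost their call without wild-type day 4 replicate 2 (0.10 and 0.11), and likewise when day 8 replicate 1 of wild type was left out (0.15 and 0.12). Neither was called without the intensity trend, and the middle one was not called when arrays were scaled to the same median (0.10). Pyruvate carboxylase, a mitochondrial enzyme, was called higher at 2 of its 4 probe sets, by 0.47 and 0.49. None of the 4 was called when arrays were scaled to the hybridization controls. The 3′ one lost its call when replicate 2 of wild type was left out at day 4 (0.25) or at day 8 (0.43). The remaining 2 changed by 0.05 and 0.31 without a call, though the second was called without the intensity trend (limma adjusted p = 0.048). No difference between the genotypes was called for any of the 19 by limma, and 0 had an unadjusted p below 0.05.

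**Figure D5:**
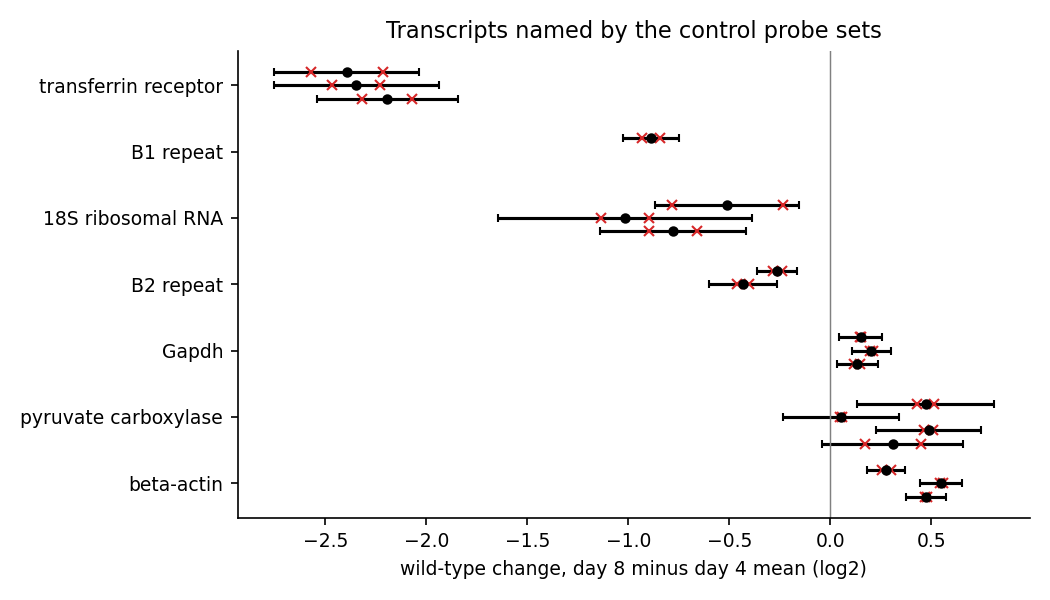
Log2 change from day 4 to day 8 in wild type (horizontal axis) for the 19 mouse control probe sets, grouped by transcript (rows); black points are changes with the 95% interval of the limma fit, and crosses are the 2 day 8 arrays against the day 4 mean. The transferrin receptor lies between -2.40 and -2.19, the B1 repeat at -0.89, and beta-actin between 0.28 and 0.55.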

How the data were processed

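The authors deposited 1 table with a log2 value per probe set and array, and the scale is known from those values alone. The submitters' processing notes name GCOS, the scanner software. For background correction, summarization and normalization the sources used here give nothing, so the sizes of changes at low levels, and any change in the total messenger RNA of a cell, are open to them. The values were used as deposited.

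One model with 4 group means over all 8 arrays (4 residual degrees of freedom) was fitted in R 4.3.3 with limma 3.58.1, using lmFit and eBayes with trend. In simulated data, 100 probe sets were changed by 0.5 on the log2 scale and 100 by 1. The model recovered 34% and 83% of them, and called 8 of 22319 unchanged probe sets. Far more probe sets were called in the real data, so this check does not give the error rate there. Tests were 2-sided, and calls had a Benjamini-Hochberg adjusted p below 0.05 over the 22519 probe sets. For the 19 mouse control probe sets the adjustment was over these 22519 and the 19 together. An exact permutation test of 2 arrays against 2 cannot go below p = 0.333. The number of arrays limits the precision, and the SE of a change had a median of 0.12. The labels do not say whether replicates came from separate animals or cultures, so p-values may measure technical spread.

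The comparison described and all lists were chosen with earlier results of these data known. The 46 lists of pathway genes and cell type markers could not be matched to probe sets, since 0 identifiers were found in the gene table. By rule, the 2 largest rises and 2 largest falls among called probe sets without overlap of the days are named, with the mouse controls; for want of gene names no others are. Alternatives covered normalization, filter, variance model, samples, replicate block, threshold and each array left out.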

Additional observations from a re-analysis of the deposited data

Results flagged for a closer look

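The change from day 4 to day 8 differed between the genotypes, by the limma test of the difference itself, for 348 probe sets in which it was lower in wild type and 24 in which it was higher. Each comparison had 2 arrays per group. As said above, these counts moved with single arrays and with the scaling.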

How the results depend on the processing

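The wild-type counts kept within 1.5 times of their value under every other scaling, without the intensity trend and with wild-type arrays alone. Leaving out 1 array gave 15765 to 17281 calls (6988 to 7943 higher, 8777 to 9338 lower), where a lone array was assumed to vary like the other groups. The stricter filter, which tests fewer probe sets, gave 9604 calls (4163 higher, 5441 lower) and 9674 in null, the absence of a filter 12843 higher, and the test against 2-fold 5350 (1925 higher, 3425 lower). The difference between the genotypes was called for 209 probe sets after quantile normalization, 198 after cyclic loess, 129 without the intensity trend, 124 with the hybridization control scaling and 48 to 893 without 1 array. The cause was not tested. The Gapdh 3′ and middle values turned to -0.017 and -0.034 when scaled to the hybridization controls. The labels do not say what the replicate numbers stand for. Deviations of same-numbered arrays correlated at 0.02 between the days in wild type and 0.22 in null, and from -0.05 to 0.12 between the genotypes, so the numbers were not taken to pair the arrays. A replicate block gave 17466 calls in wild type and 319 for the difference. Wild-type arrays alone give no value for null, and the choice of probe set per gene was not run for want of gene names. Changes near background have the least certain size.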
